A study of Mus musculus with 6 samples.

Results

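The genes described here are *Eln*, *Fbn1*, *Fbn2*, *Fbln1*, *Fbln2*, *Fbln5*, *Mfap4*, *Mfap5*, *Lox* and *Loxl1*, which encode elastin, the proteins of its microfibril scaffold and the enzymes that cross-link it. They were picked by gene symbol, with earlier results of these data known, and make up 10 of the 56748 genes in the count table. All 10 passed the filter on low counts, by which 17146 genes were tested. *Eln* passed only through the WT libraries, in which it is higher, so its presence among the tested genes already depends on its direction.

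Elastic fibers form when secreted tropoelastin gathers on a bundle of fibrillin microfibrils and is then cross-linked. Fibulins and microfibril-associated proteins bind both partners and bring the enzymes close, and lysyl oxidases convert lysine side chains of elastin and of fibrillar collagens into the aldehydes from which cross-links form. In mineralized bone elastin itself is scarce. There, lysyl oxidase is known for cross-linking type I collagen, and fibrillins are known for holding latent TGF-β and BMP complexes in the matrix.

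RNA was sequenced from 6 cultures of primary mouse cells labelled as osteocytes, which had been released from marrow-flushed long bones by enzymes and EDTA and grown for 7 days. In 3 cultures the cells came from WT mice, and in 3 from mice labelled cKO, an osteocyte-directed *Gsdmd* knockout made with *Gsdmd* fl/fl alleles and DMP1-Cre, a recombinase driven by the promoter of the osteocyte gene *Dmp1*. The methods give C57BL/6J for the WT animals of the stimulated cultures, and C57BL/6 at 7 weeks of age for the isolation of osteocytes. All 6 received lipopolysaccharide (LPS, 10 ng/mL) for 3 h and then aluminum hydroxide (20 µg/mL) for 3 h, a treatment that engages the inflammasome. No unstimulated culture was analysed here, so each value compares genotypes under stimulation, and nothing in the labels says that the cultures of a genotype came from separate animals. The p-values therefore measure only the spread between these cultures.

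The libraries held 39566835 to 49734046 counts. *Gsdmd* itself, counted over the whole gene and not over the floxed exons alone, had 549 to 699 counts in WT but 885 to 1045 under the cKO label (log2 fold change 0.69, adjusted p = 2.27e-06). This is not the direction that a loss of *Gsdmd* RNA would give, but a count over the whole gene cannot show whether the floxed exons were lost. Each direction below rests on the label. *Xist*, the RNA that coats a silenced X chromosome, had at most 4 counts in a WT library and at least 44817 in a library labelled cKO, and 5 of the 8 tested Y-linked genes had 3 counts or fewer in every library labelled cKO. Sex and genotype cannot be told apart here. Defining osteocyte markers had few or no counts. *Sost* had no count in any library, and *Mepe* and *Dmp1* had at most 2 and 6 counts. *Fgf23* had 14, 34 and 8 counts in WT against 6, 0 and 0 in the libraries labelled cKO. *Phex* had 22, 4 and 4 counts in WT against 16, 2 and 6. Of the 6 osteocyte markers only *Pdpn* had enough counts to be tested (log2 fold change -0.28). Of these markers 1 was lower, or 2 without WT replicate 3 or without replicate 1 of the cKO label. All 15 tested macrophage markers of a list of 16 rose under the cKO label, among them *Csf1r* (log2 fold change 3.17) and *C1qc* (3.32). Their median was 3.01, and their summed level was 1209 to 1363 CPM (counts per 1000000, scaled by edgeR's TMM method) in WT against 6441 to 6761 CPM. A lower share of a cell type and less RNA per cell cannot be told apart in such bulk libraries, and the part of macrophage RNA in the results below was not tested.

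Of the 10 genes, 8 fell and 2 rose in the libraries labelled cKO at an adjusted p below 0.05 (quasi-likelihood test of edgeR, adjusted by Benjamini-Hochberg over all tested genes). Across all tested genes 39.3% passed, 19.2% lower and 20.1% higher. The median log2 fold change (libraries labelled cKO over WT) was -0.82 for the 10 genes and 0.01 for all tested genes. The genes that fell were *Eln*, *Mfap5*, *Fbln2*, *Mfap4*, *Loxl1*, *Fbn1*, *Lox* and *Fbln1*, and those that rose were *Fbn2* and *Fbln5*. *Eln* enters these counts and the median only because it passed the filter through WT, in which it is higher. With at least 10 counts required in every library *Eln* was not tested, and 7 genes fell and 2 rose. With a change of at least 2-fold required as well, 4 fell (*Eln*, *Mfap5*, *Fbln2* and *Mfap4*; background 4.64%) and 1 rose (*Fbn2*; background 6.56%). No WT library overlapped a library labelled cKO in any of the 10, which also held for 49.2% of all tested genes (23.9% lower and 25.3% higher).

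**Figure D1:**
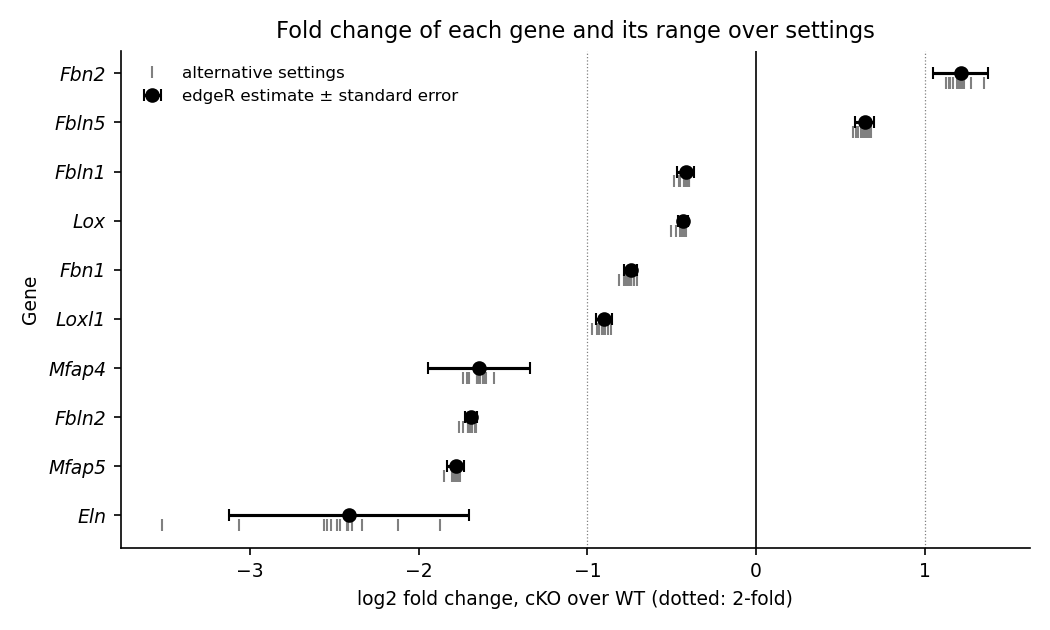
Log2 fold change (libraries labelled cKO over WT) of each of the 10 genes from edgeR, with its standard error, and grey ticks for the value under each alternative setting; dotted lines mark 2-fold. *Fbn2* (1.21) and *Fbln5* (0.64) lie to the right of 0 and the other 8 genes to the left, and *Eln* (-2.42) has the widest spread.

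*Lox* encodes lysyl oxidase, which acts on both collagen and elastin. On chromosome 18 of GRCm39, from 52649139 to 52662939, it was the second most counted gene of the table in each WT library and ranked 5 in each library labelled cKO. It was counted 603608, 649826 and 478076 times in WT and 401931, 372379 and 445301 times in the libraries labelled cKO. Scaled to library size these were 13410.3, 13095 and 12317 CPM in WT and 9552, 9364 and 9803 CPM in the libraries labelled cKO. Every WT library was above every library labelled cKO, although the highest of the raw counts labelled cKO came close to the lowest of WT. *Lox* fell by 0.43 on the log2 scale (standard error 0.031, adjusted p = 2.96e-09), to 74.0% of the WT level. This single gene took 1.28% ± 0.0679 of all counts in WT and 0.964% ± 0.0225 in the libraries labelled cKO (SD, n = 3 each).

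*Loxl1*, whose product cross-links elastin in particular, lies on chromosome 9 from 58195021 to 58220469. Its level was 199.9, 203 and 220.3 CPM in WT and 111, 111 and 111 CPM in the libraries labelled cKO. The 3 libraries labelled cKO were almost equal, and the groups were far apart relative to that spread. The fall was 0.90 on the log2 scale (standard error 0.046, adjusted p = 2.84e-11), to 53.5% of WT.

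The other lysyl oxidases fell as well. *Loxl2* fell by 1.57 on the log2 scale, from 457 ± 10.5 to 154 ± 7.54 CPM, *Loxl4* by 1.02 and *Loxl3* by 0.65 (adjusted p = 1.08e-09 and 2.83e-10). In a list of 13 other genes that cross-link, activate the enzymes or supply their copper, 8 of the 12 tested were lower, 2 were higher and 2 did not pass, and the median log2 fold change was -0.69. *Bmp1*, the protease that cleaves the lysyl oxidase propeptide, fell by 1.08, and its relative *Tll1* by 1.59. Fibronectin and periostin, encoded by *Fn1* and *Postn*, are matrix proteins that bring BMP1 and pro-lysyl oxidase together. *Fn1*, the most counted gene of each WT library, fell by 0.72, and *Postn* fell by 3.12, from 230.6 ± 9.27 to 26.4 ± 0.481 CPM (SD, n = 3 each). The 2 higher genes, *Slc31a1* (log2 fold change 0.64, adjusted p = 5.39e-09) and *Atox1* (0.32, adjusted p = 0.000519), encode a copper importer and a copper chaperone. The copper pump *Atp7a*, which loads lysyl oxidases, did not pass (0.16, adjusted p = 0.0734).

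The fibrillins form the microfibril backbone. *Fbn1*, on chromosome 2 from 125142514 to 125349913, encodes the main fibrillin of adult tissue. It was measured at 1220.2, 1197 and 1313 CPM in WT and at 724, 762 and 739 CPM in the libraries labelled cKO. The groups lay well apart, and the fall was 0.74 on the log2 scale (standard error 0.039, adjusted p = 4.26e-11), to 59.7% of WT.

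*Fbn2*, a fibrillin best known from embryonic tissue, lies on chromosome 18 from 58141695 to 58343559 and went the other way. It was counted 171, 141 and 112 times in WT and 319, 310 and 306 times in the libraries labelled cKO, or 3.80, 2.84 and 2.89 against 7.58, 7.80 and 6.74 CPM. Every library labelled cKO held more than any WT library, from a low base. *Fbn2* rose to 232% of WT, or by 1.21 on the log2 scale (standard error 0.16, adjusted p = 1e-05).

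*Mfap4* and *Mfap5* encode microfibril-associated proteins, of which MFAP5 binds fibrillin and MFAP4 binds elastin and fibrillin. *Mfap5*, on chromosome 6 from 122482804 to 122506249, was at 96.0, 94.6 and 99.1 CPM in WT and at 28.7, 27.6 and 27.9 CPM in the libraries labelled cKO. It fell by 1.78 on the log2 scale (standard error 0.051, adjusted p = 1.09e-14), to 29.1% of WT, and ranked 89 by p-value among all tested genes. *Mfap4*, on chromosome 11 from 61376257 to 61379726, was scarce, with 95, 98 and 70 counts in WT and 23, 25 and 32 in the libraries labelled cKO. Its fall of 1.64 (standard error 0.30, adjusted p = 0.00028) was close in size to that of *Mfap5*, with a standard error several times wider at these counts.

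The fibulins *Fbln1*, *Fbln2* and *Fbln5* encode secreted linker proteins that decorate elastic fibers and basement membranes, and they did not move as one. *Fbln2*, on chromosome 6 from 91189437 to 91249522, had 2221, 2116 and 2330.5 CPM in WT and 682, 702 and 681 CPM in the libraries labelled cKO. The fall was 1.69 on the log2 scale (standard error 0.038, adjusted p = 4.86e-16), to 31.0% of WT, with a rank of 38 by p-value among all tested genes. *Fbln1*, on chromosome 15 from 85090150 to 85170736, changed less, from 88.5, 83.3 and 89.6 CPM to 64.0, 68.2 and 63.5 CPM. Its log2 fold change was -0.42 (standard error 0.051, adjusted p = 2.96e-06). *Fbln5*, whose product binds elastin, LOXL1 and integrins and is needed for elastic fiber assembly, lies on chromosome 12 from 101712824 to 101785314. It had 66.9, 68.0 and 72.5 CPM in WT and 116, 102 and 106 CPM in the libraries labelled cKO, so all 3 libraries labelled cKO stood above WT. *Fbln5* rose to 156% of WT, or by 0.64 on the log2 scale (standard error 0.055, adjusted p = 3.21e-08).

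RefSeq promoter windows were matched for 4 of the 10 genes, *Fbn1*, *Fbln1*, *Fbln2* and *Fbln5*. Those of *Fbln1* and *Fbln5*, a fibulin that fell and one that rose, are shown. For each, the window farthest upstream was taken, which ends before the gene start of the count table. Only bases upstream of the RefSeq start and outside annotated exons (GENCODE M39) are printed, 250 for *Fbln1* and 199 for *Fbln5*, read 5′ to 3′ on the strand of the gene. Capitals mark letters that match a searched motif on either strand. The *Fbln1* window is on the + strand of GRCm38.p6 at chr15:85205699-85205948, and an exact match places it at 85089900 to 85090149 in GRCm39, the build of the counts. For *Fbln5*, on the - strand, the printed bases are chr12:101819171-101819369 in GRCm38.p6 and 101785430 to 101785628 in GRCm39.
Fbln1: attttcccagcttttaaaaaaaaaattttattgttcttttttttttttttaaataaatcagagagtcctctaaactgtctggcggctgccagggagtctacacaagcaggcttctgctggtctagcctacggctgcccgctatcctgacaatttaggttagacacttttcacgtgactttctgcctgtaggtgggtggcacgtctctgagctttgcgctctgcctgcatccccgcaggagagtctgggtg
Fbln5: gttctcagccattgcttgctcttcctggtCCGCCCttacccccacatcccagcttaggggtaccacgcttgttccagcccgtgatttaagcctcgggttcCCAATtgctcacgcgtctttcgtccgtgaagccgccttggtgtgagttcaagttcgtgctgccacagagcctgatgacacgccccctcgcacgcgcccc
The motifs searched on both strands were the TATA box (TATAAA), the CCAAT box (CCAAT), the GC box (GGGCGG), the AP-1 site (TGANTCA), a TEAD site (GGAATG) and 1 form of the NF-κB site. The matches shown do not overlap each other. The printed *Fbln5* bases held 1 CCAAT box and 1 GC box, letters that 28.2% and 24.4% of all upstream windows of that length hold, among 32851 windows. Another GC box lay in the 51 bases left out. The printed *Fbln1* window held none of the 6, where the shares over windows of its length ran from 0.0852% for the NF-κB form to 33.8% for the CCAAT box. No match says only that these letters are not in this window. A GC box was found in the other *Fbln1* window, which ends 59 bases further down, and in the windows of *Fbn1* and *Fbln2*, but not in the other *Fbln5* window. All 250 bases of the *Fbn1* and *Fbln2* windows lie in annotated exons, as does the GC box of the other *Fbln1* window. These matches therefore cannot be set beside the printed bases. Whether the motif separates the genes that fell from *Fbln5* was not tested. G and C made up 46.4% of the *Fbln1* bases and 60.3% of the *Fbln5* bases.

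*Eln*, on chromosome 5 from 134731447 to 134776177, encodes elastin and was barely detected. It was counted 22, 40 and 18 times in WT and 4, 0 and 10 times in the libraries labelled cKO, and for the library with 0 counts the limit of 3 counts corresponds to 0.0754 CPM. All 6 of its counts were even, and over all genes 63.4% to 65.7% of the counts from 1 to 10 in a library were even, against 51.9% to 53.2% of those from 11 to 100. The estimated fall of 2.42 on the log2 scale (standard error 0.71, adjusted p = 0.0118) depends on single libraries. Without WT replicate 2, which held the most counts, the log2 fold change was -2.12 and did not pass (adjusted p = 0.0628), and without replicate 3 of the cKO label it was -3.52. In both genotypes elastin RNA lay at the bottom of the tested genes, above 2.74% of them in WT and above 0.437% in the libraries labelled cKO per kilobase of gene length.

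Levels per kilobase, with counts scaled by library and by the gene length given in the table, let the 10 genes be set side by side. In WT the order was *Lox* (2708 ± 118 CPM per kilobase), *Fbln2* (349 ± 16.8), *Fbn1* (103 ± 5.06), *Loxl1* (63.0 ± 3.34), *Mfap5* (26.9 ± 0.647), *Fbln1* (19.9 ± 0.768), *Fbln5* (10.0 ± 0.435), *Mfap4* (1.02 ± 0.0801), *Fbn2* (0.240 ± 0.0409) and *Eln* (0.0724 ± 0.0236; SD, n = 3 each). No neighbours in that order overlapped between libraries. In the libraries labelled cKO the first 4 places were held by the same genes in the same order, at 2004 ± 46.0, 108 ± 1.93, 61.2 ± 1.57 and 33.7 ± 0.121 CPM per kilobase. *Fbln5* (15.6 ± 1.01) and *Fbln1* (14.9 ± 0.581) came next and overlapped, so their order there is not resolved. *Mfap5* had moved behind both, to 7.83 ± 0.158, and *Fbn2* (0.558 ± 0.0424) ahead of *Mfap4* (0.326 ± 0.0411), with *Eln* still last.

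**Figure D2:**
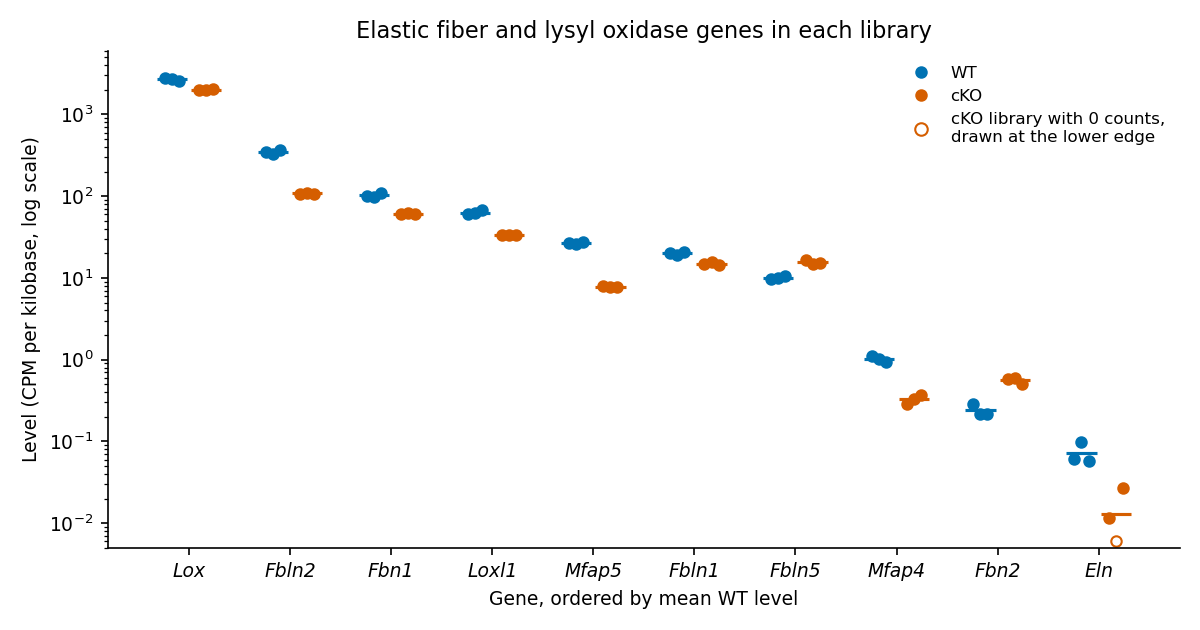
Level of each gene in CPM per kilobase on a log axis, with 1 point per library, a line at each group mean, WT in blue and the libraries labelled cKO in orange; the open circle is a library with 0 counts drawn at the lower edge. Levels in WT run from 2708 for *Lox* to 0.0724 for *Eln*, and the libraries labelled cKO lie lower except for *Fbln5* and *Fbn2*.

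Summed over the 10 genes, the level was 3281 ± 98.3 CPM per kilobase in WT and 2246 ± 43.1 in the libraries labelled cKO (SD, n = 3 each). *Lox* alone made up 82.5% ± 1.24 of that sum in WT and 89.2% ± 0.342 in the libraries labelled cKO. Without *Lox*, the sum of the other 9 was 573 ± 26.2 in WT against 242 ± 3.26 CPM per kilobase. The *Lox* share was thus larger under the cKO label while *Lox* itself was lower, and WT and cKO-labelled libraries stood apart in each of these sums.

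A ratio between related genes within a library does not depend on how libraries are scaled. With 3 libraries against 3, the two-sided exact permutation test cannot give a p below 0.1. *Fbn2* over *Fbn1*, per kilobase, was 0.00286, 0.00218 and 0.00202 in WT and 0.00960, 0.00939 and 0.00837 in the libraries labelled cKO, so the ratio was 3.92-fold higher (log2 difference 1.97, exact p = 0.1). *Fbn2* was nevertheless a small fraction of fibrillin RNA in every library. *Fbln2* over *Fbln1* was 17.2, 17.4 and 17.8 in WT and 7.30, 7.07 and 7.35 in the libraries labelled cKO, a log2 difference of -1.27 (exact p = 0.1). For *Loxl1* over *Lox* the log2 difference was -0.47 (exact p = 0.1), from 0.0216, 0.0225 and 0.0259 to 0.0169, 0.0172 and 0.0164. The groups did not overlap in these 3 ratios. *Mfap5* over *Mfap4* did overlap, with 24.4, 25.6 and 29.4 in WT and 28.2, 23.5 and 21.2 in the libraries labelled cKO (log2 difference -0.13, exact p = 0.4). Ratios over *Eln* needed 1 count added, because a library held none, and spread widely: *Lox* over *Eln* ran from 26862 to 44480 in WT and from 68611 to 631129 in the libraries labelled cKO.

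**Figure D3:**
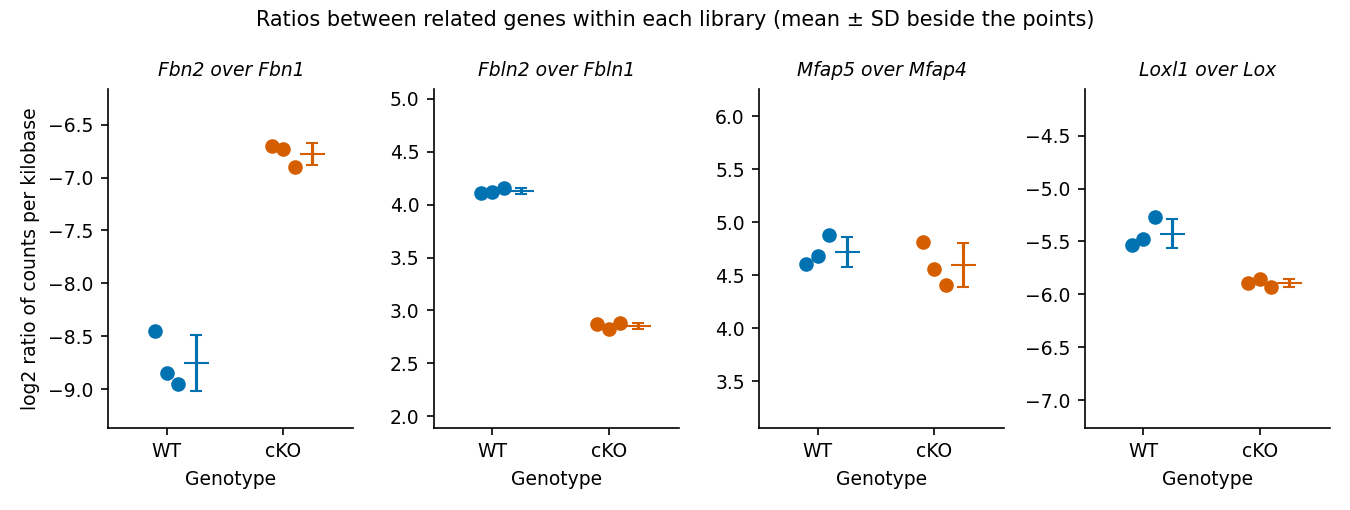
Log2 ratio of counts per kilobase between 4 pairs of related genes, with 1 point per library and the mean ± SD beside the points; each panel spans the same height on the log2 scale. *Fbn2* over *Fbn1* is higher in the libraries labelled cKO by 1.97, *Fbln2* over *Fbln1* lower by 1.27 and *Loxl1* over *Lox* lower by 0.47, while *Mfap5* over *Mfap4* overlaps.

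Overlapping genes on the opposite strand were looked up in the table, since the sources used here do not give the strand setting of the counting. By their spans, introns included, *Lox* shares 1207 bases with *Gm41724* (2408 to 4071 counts, log2 fold change -0.03), *Fbn1* shares 2793 bases with *Gm9913*, *Mfap4* shares 89 bases with *Mapk7*, and *Eln* shares 282 bases with *Gm30003*, which had no counts. None of the 3 counted partners passed the test. The counts alone do not show from which strand reads of the shared stretches came, and the other 6 genes overlap no gene of the table.

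Among 25 other genes of microfibril and elastic fiber assembly, 19 were tested, of which 10 fell, 4 rose and 5 did not pass (median log2 fold change -0.13). *Efemp1*, which encodes fibulin-3, fell by 1.16 on the log2 scale from 435 ± 8.39 to 194 ± 7.22 CPM. *Efemp2* encodes fibulin-4, the partner that ties lysyl oxidase to tropoelastin, and it fell by 0.38 (adjusted p = 1.4e-07). The genes of the latent TGF-β binding protein family were split. *Ltbp1* and *Ltbp2* rose by log2 fold changes of 0.37 and 0.30, *Ltbp4* by 0.42, and *Ltbp3* fell by 0.47. *Ltbp2* was the most abundant of them by count, at 2198 ± 146 CPM in WT and 2713 ± 23.6 CPM in the libraries labelled cKO. *Emilin2*, an elastin-interface glycoprotein gene, rose by 0.62, whereas *Emilin1* stood at 0.00 on the log2 scale (standard error 0.048, adjusted p = 0.993). *Tnxb*, which encodes tenascin-X, fell by 0.69.

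Of 20 genes for elastin-cleaving proteases, their inhibitors and the elastin receptor, 16 were tested, and 9 rose and 7 fell (median log2 fold change 0.20). Cathepsin S, an elastase of macrophages encoded by *Ctss*, rose by a log2 fold change of 3.16, from 76.2 ± 3.48 to 683.5 ± 13.9 CPM. *Mmp12*, the macrophage metalloelastase, rose by 1.18, from a mean of 128 to 290.4 CPM, and *Ctsb* rose by 1.01. Both *Ctss* and *Mmp12* are genes of macrophages, whose markers rose in the same libraries (median 3.01). The part of macrophage RNA in either rise was not tested. Gelatinase B did the opposite: *Mmp9* fell by 2.83, from 21.9 ± 3.70 to 3.05 ± 0.609 CPM. The inhibitor genes were split: *Timp3* and *Timp2* fell by 0.76 and 0.33, and *Cst3* and *Timp1* rose by 0.85 and 0.11.

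Of the 10 integrin subunits that bind fibrillins, fibulins and other RGD proteins, 5 fell, 4 rose and 1 did not pass (median -0.36). *Itga5*, *Itgb1* and *Itgav*, which together make receptors for fibronectin and fibrillin-1, fell by 1.01, 0.40 and 0.39 on the log2 scale. *Itga4*, a leukocyte integrin subunit, rose by 2.40, *Itgb8* by 0.88 and *Itga9* by 0.48.

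In a list of 14 TGF-β ligands, receptors, mediators and targets, 5 rose, 6 fell and 3 did not pass (median log2 fold change 0.04). Ligand *Tgfb1* rose by 0.72 and the co-receptor gene *Tgfbr3* by 0.28. The TGF-β-inducible genes *Ccn2* and *Smad7* fell by 0.57 and 0.53, while *Tgfbi*, also inducible and expressed by macrophages, rose by 2.42. Against the median of -0.82 for the elastic fiber and lysyl oxidase genes, the medians of the other lists of pathway genes were closer to 0, with that of the cross-linking list, -0.69, the nearest to it.

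**Figure D4:**
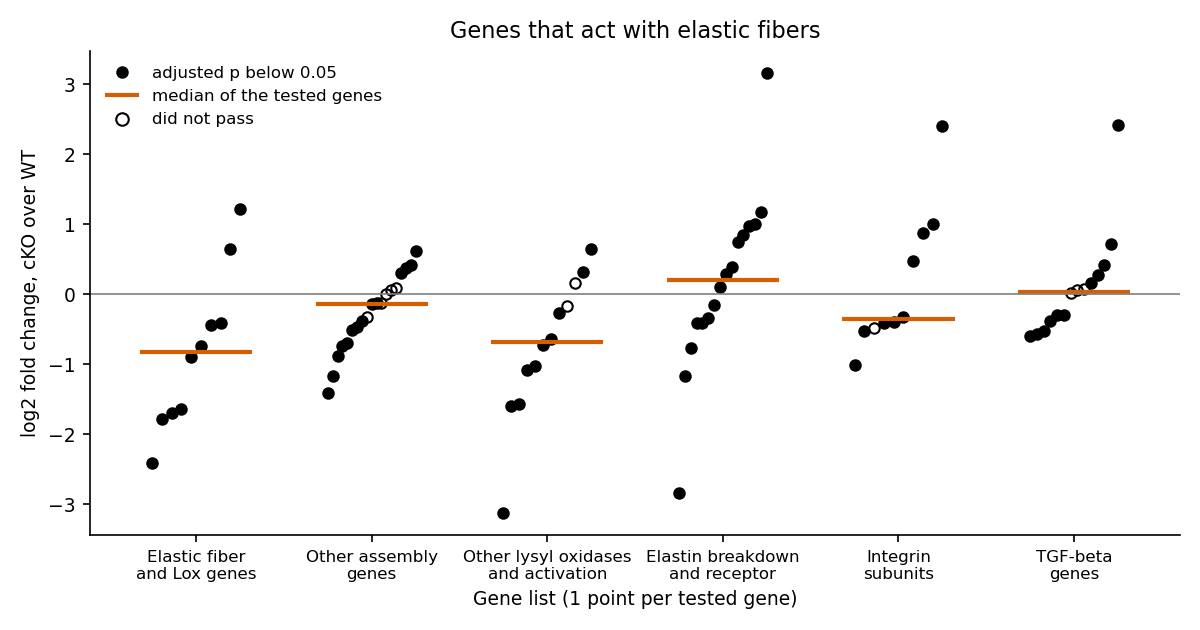
Log2 fold change (libraries labelled cKO over WT) of each tested gene in the 6 lists, with filled points for an adjusted p below 0.05, open points for genes that did not pass, and an orange line at each median. Medians are -0.82 for the elastic fiber and lysyl oxidase genes, -0.13 for other assembly genes, -0.69 for the other lysyl oxidases and their activation, 0.20 for elastin breakdown, -0.36 for integrins and 0.04 for TGF-β genes.

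The genes nearest in profile over the 6 libraries were taken from centred log2 CPM by Euclidean distance, which with 2 groups mostly finds genes of like fold change. For *Lox* they were *Bnip3l* (distance 0.0455, log2 fold change -0.44), *Mbnl2* (0.0561, -0.45) and *Pgrmc2* (0.0586, -0.44). The distances for *Eln* were wider, with *Dgkk* (0.861, -2.77), *Pcsk1* (0.911, -2.53) and *Ankk1* (0.927, -3.14) the nearest.

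Markers of other cells that make elastic fiber proteins moved in the same libraries. Of 10 smooth muscle and pericyte markers, cells that make much of the elastin of arteries, 9 were tested, of which 8 fell and 1 did not pass, with a median of -1.37. *Tagln* fell by 1.58 and *Actg2* by 2.51, and the summed level of the list was 1381 to 1579 CPM in WT against 646 to 717 CPM. All 11 fibroblast progenitor markers were tested, of which 7 fell and 3 rose (median -0.46, summed level 1009.7 to 1032 CPM in WT against 1045 to 1087 CPM). *Col14a1* and *Thy1* fell by 1.72 and 0.60, *Pdgfra* rose by 0.45, and *Clec3b* rose from 2, 4 and 2 counts in WT to 90, 94 and 138. The osteoblast list had 2 of 7 tested genes higher and 4 lower, or 2 lower without replicate 3 of the cKO label (median -0.21, 13605 to 15441 CPM in WT against 9080.3 to 9297 CPM). There *Col1a1*, a substrate of lysyl oxidase, fell by 0.67, *Spp1* fell by 0.64, and *Ibsp* and *Alpl* rose by 2.01 and 0.68.

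Endothelial markers were low, at a summed 15.8 to 18.0 CPM in WT against 25.8 to 29.6 CPM. Of the 8 tested, with a median of -0.75, 4 fell, among them *Emcn* (56, 59 and 35 counts in WT against 0, 0 and 2) and *Tek* (56, 54 and 36 against 2, 0 and 5). Another 3 rose, among them *Kdr* (2.04) and *Vwf* (1.67), and *Cldn5* had no count in any library. With at least 10 counts required in every library, 1 endothelial marker was lower and 3 were higher. Chondrocyte markers rose in 5 of 6 tested genes (median 3.42, 1957 to 2169 CPM in WT against 2922 to 3109 CPM). With at least 10 counts required in every library, 2 were higher and 1 lower, so the count of 5 rests in part on genes scarce in some libraries. *Comp* (1.90) and *Acan* (7.36) had the smallest p-values among those that rose, and *Col2a1* fell by 0.84. The part of any of these cells in the values of the 10 genes was not tested.

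**Figure D5:**
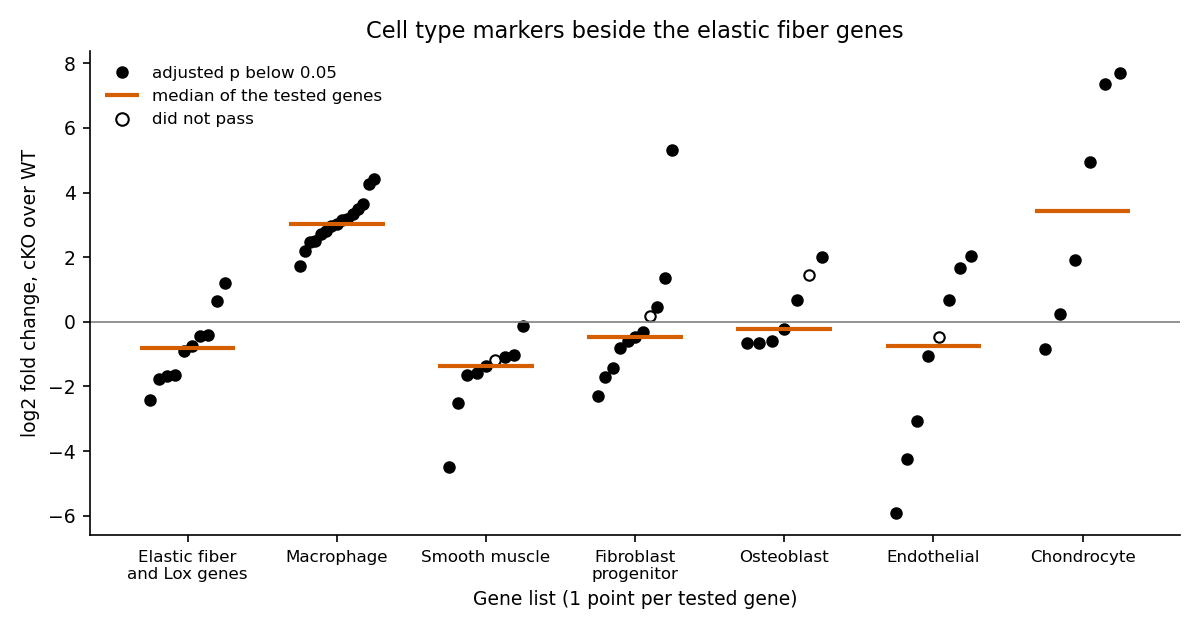
Log2 fold change (libraries labelled cKO over WT) of each tested marker, drawn as in the plot of pathway genes, beside the 10 elastic fiber and lysyl oxidase genes. Macrophage markers lie above 0 throughout (median 3.01), smooth muscle markers lie below it (median -1.37), and the other lists drawn hold genes on both sides. The osteocyte list, with 1 tested gene (-0.28), is not drawn.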

How the data were processed

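Total RNA of 6 stimulated cultures was sequenced as 150 bp read pairs from a directional kit. Per the labels and the study's methods, the authors trimmed the reads, aligned them with HISAT2 2.0.5 to GRCm39 (mm39) and counted them on genes with featureCounts (1.55.0-p3 in the submitters' processing notes, another release in the methods). They deposited raw counts per gene, not normalized, with a gene length in bases. The strand setting is not given in the sources used here.

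From the deposited counts, edgeR 4.0.16 in R 4.3.3 was used with filterByExpr, TMM scaling, glmQLFit and glmQLFTest on a model of genotype alone, with p-values adjusted by Benjamini-Hochberg over 17146 genes. Standard errors are the log2 fold change divided by the root of the F statistic. CPM per kilobase divides CPM by the gene length. The procedure was tested on simulated counts. Total counts per library lay between 39566835 and 49734046, and limits of 3 counts cover counting error only. Replicates differed by more than sampling noise (chi-square per gene 4.82 to 13.9), so all 6 were kept.

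The 10 genes, the 12 other lists, the ratios and the alternatives were chosen with earlier results of these data known. Named were all 10 genes, and of each pathway list the 3 genes of smallest p among those that rose and among those that fell, of each marker list 2 of each kind and any defining marker at 3 counts or fewer throughout, with *Gsdmd*, *Xist*, and the 3 nearest profiles of *Eln* and *Lox*. *Loxl3*, *Loxl4*, *Bmp1*, *Tll1*, *Atp7a*, *Efemp2*, *Ltbp4*, *Emilin1*, *Timp1*, *Cst3*, *Fgf23* and *Phex* were added after their values were seen. *Dmp1*, with at most 6 counts in a library, is also named outside this rule. Alternatives were DESeq2 1.42.0, limma-voom (limma 3.58.1), edgeR's exact test, other scalings and filters, halved counts, a replicate block and each library left out. Promoter windows came from RefSeq on GRCm38.p6. A gene that the rule names is not reported here. Other assays of the study were not analysed here.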

Additional observations from a re-analysis of the deposited data

How the results depend on the processing

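Across 16 alternative settings the direction of all 10 genes was kept, and 157 of 158 refits stayed on the same side of the threshold. The exception was *Eln*, which without WT replicate 2 was at -2.12 on the log2 scale (adjusted p = 0.0628). With each library left out in turn its log2 fold change ran from -3.52 to -1.87 and the number of genes that fell from 7 to 8, and with limma-voom its value was -3.07. *Eln* was not tested with at least 10 counts required in every library or with counts halved, a setting chosen because small counts were mostly even. With a change of at least 2-fold required, 1 of the 10 genes was higher and 4 lower. Under the same limit the numbers higher and lower were 0 and 2 for assembly, 0 and 5 for cross-linking, 3 and 2 for elastin breakdown, 2 and 1 for integrins and 1 and 0 for TGF-β genes, fewer by construction. The other 160 counts for these lists stayed within 1.5 times. The marker lists were run under the same settings, an addition made after the data had been seen, and 11 of their counts moved further than that while 227 did not. The osteoblast markers that fell numbered 2 without cKO replicate 3, and the osteocyte markers that fell 2 in place of 1 without WT replicate 3 or cKO replicate 1. With at least 10 counts required in every library, the chondrocyte markers that rose numbered 2 in place of 5. Under that filter the endothelial markers that fell numbered 1 in place of 4.

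Of the genes called over the whole table, 51.2% were higher, against 39.5% with upper quartile scaling, which shifted the median log2 fold change of all tested genes to -0.06. Replicate numbers did not pair the samples: the correlation of same-numbered deviations was -0.0055, 0.00228 and -0.0103, and not every library correlated best with its own number. With the replicate number as a block, 2 of the 10 genes were higher and 8 lower, and 3298 and 3098 of all genes. The log2 ratios kept their sign with 1 count added and with each library left out, from -0.24 to -0.04 for *Mfap5* over *Mfap4*. Depth limits *Eln* and *Mfap4*, which rest on under 100 counts per library.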
